A study of Mus musculus with 2 samples.

Results

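The desmosome and cornified envelope genes were taken from the deposited count table by symbol. They comprised every row named Sprr, Lce, Dsg, Dsc or Pkp with a number, together with Ivl, Lor, Flg, Flg2, Tgm1, Tgm3, Tgm5, Sbsn, Krtdap, Calml3, Cnfn, Lgals7, Dsp, Jup, Ppl, Evpl, Padi3, Tchh and Tchhl1. This gave 70 of the 27376 rows, with 66 distinct symbols because Flg fills 5 rows. RNA sequencing had been run on whole prostate tumour tissue at the age of 16 months, with 1 library for each of the genotypes Bcat_Only and Met_Bcat. Per the file headers, the Bcat_Only column carries the names Bcat_ex3Plus and PB_Cre, a beta-catenin exon allele and a Cre driver; PB usually denotes the probasin promoter, which is active in prostate epithelium. The header of the Met_Bcat column names no allele, and the sources used here do not give the MET allele, the strain or whether tissue was pooled.

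Desmosomes are the spot-like junctions that tie the keratin filaments of neighbouring epithelial cells together. Desmogleins and desmocollins, both cadherins, meet between the cells, and inside the cell plakoglobin and plakophilins link them to desmoplakin, which holds the keratin. In stratified squamous epithelium the outer cells also build a cornified envelope, in which transglutaminases cross-link involucrin, loricrin, small proline-rich and late cornified envelope proteins onto a scaffold of envoplakin and periplakin. Prostate epithelium is glandular, with a luminal layer on basal cells, and does not normally cornify.

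With 1 library a genotype, the differences below compare 2 libraries and have no replicate check. Levels are given as CPM, reads per 1000000 of the TMM-scaled library (TMM is a scaling that sets the bulk of genes equal). Ratios carry a 95% exact (Clopper-Pearson) interval for counting error only. The size rule called a gene higher or lower in Met_Bcat if its whole interval lay 2-fold or more from a ratio of 1. It was applied where the mean of both libraries reached 1 CPM, and such genes are called measured below. The libraries held 19301062 reads (Bcat_Only) and 20117724 reads (Met_Bcat), so 1 read was worth 0.0543 and 0.0474 CPM.

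The desmosome genes were all measured and had a ratio above 1, whereas the envelope genes went both ways. Over all genes measured, 52.3% had a ratio above 1. Of the 70 members, 53 had a read in Bcat_Only and 62 in Met_Bcat, and 7 had none in either. The minimum of 1 CPM was met by 35 members, all 15 desmosome genes and 20 of the 55 envelope and hair-sheath genes. By the size rule 13 members were higher in Met_Bcat and 2 lower, where 4.42% of the 14354 genes considered were higher and 14.6% lower. The median log2 ratio of CPM plus 0.5 was 0.77 over the 35 members and 0.03 over all genes considered. Together the 70 members took 0.175% of all reads in Bcat_Only (0.173% to 0.177%, exact), against 0.335% for Met_Bcat (0.332% to 0.337%). Desmoplakin alone held 9334 of the 33824 member reads in Bcat_Only and 25326 of 67339 in Met_Bcat. Without it the summed members were 1.50-fold higher in Met_Bcat, against 1.74-fold with it. Dsg1a, Dsg1b and Krtdap were under 1 CPM in Bcat_Only and reached the minimum only through Met_Bcat, so they could not have been counted without a difference. Antisense genes overlap Dsg2 (0 and 2 reads) and Dsp (2 reads in each library).

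**Figure D1:**
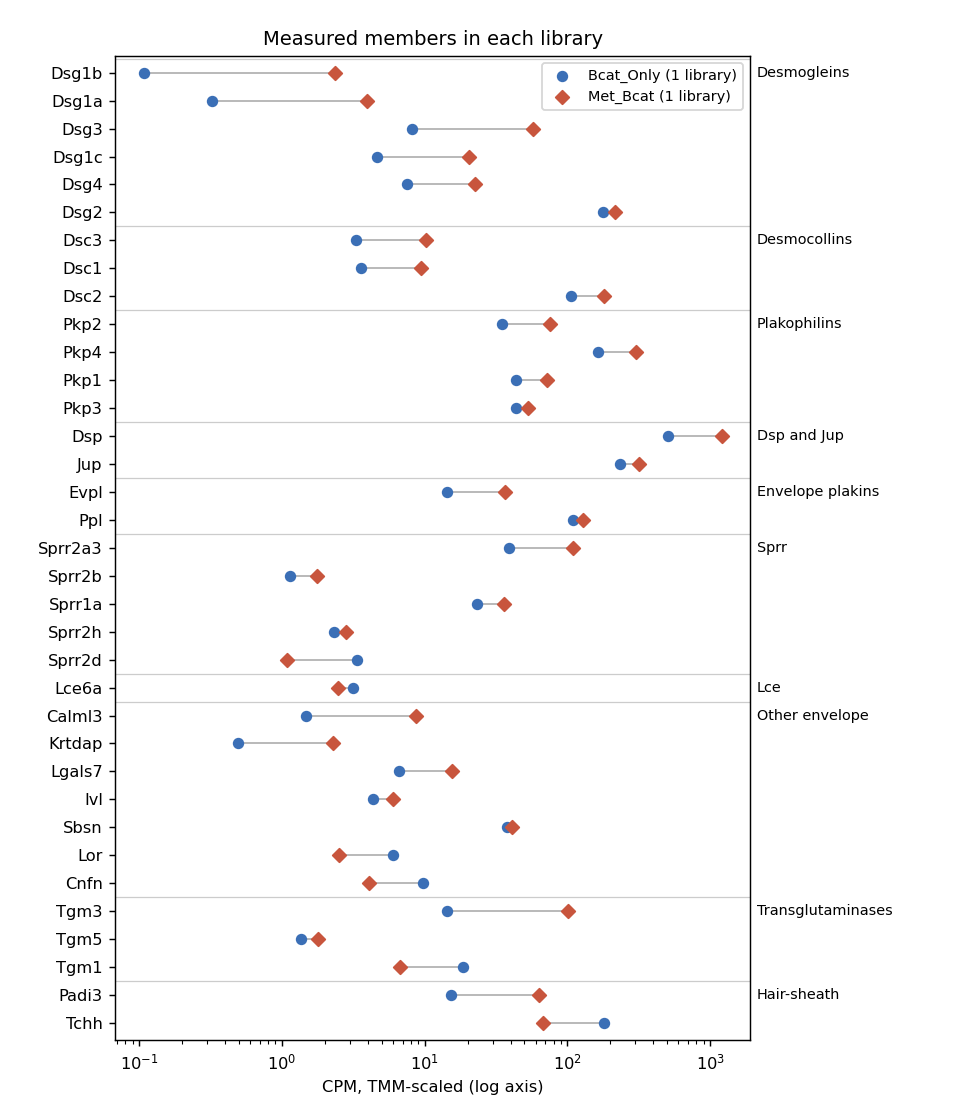
CPM (log axis) of the 35 measured members, grouped by role, with 1 circle for the Bcat_Only library and 1 diamond for the Met_Bcat library. The diamonds lie to the right for all 15 desmosome genes, and to the left for Sprr2d, Lce6a, Lor, Cnfn, Tgm1 and Tchh.

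The same libraries differed in their cell makeup, and in whole tissue fewer cells of a type cannot be told apart from less RNA per cell. Of 12 fibroblast and matrix markers, 10 were lower in Met_Bcat and 0 higher, and their summed level was 24909 CPM in Bcat_Only and 1320 CPM in Met_Bcat. Neutrophil markers were lower in 10 of 10 cases, B and plasma cell markers in 6 of 6 measured, macrophage markers in 8 of 9, smooth muscle markers in 9 of 10, endothelial markers in 7 of 10 and seminal vesicle genes in 6 of 6 measured. Luminal markers summed to 4042 and 6639 CPM and basal markers to 1214 and 2402 CPM, with 4 of 13 and 4 of 10 higher and 1 of each lower. Of 6 measured urothelial markers 2 were higher and 2 lower, and all 8 summed to 345 and 1032 CPM (2.99-fold higher, 2.91 to 3.08). Of 2 measured sebaceous and hair follicle markers 1 was higher, and all 10 summed to 281 and 859 CPM (3.06-fold higher, 2.97 to 3.16). The higher gene was Gata3, which is also in the urothelial list and among the squamous regulators below. The urothelial sum and this one therefore share its reads and are not separate observations. Of 12 heart and striated muscle markers, which matter here because heart muscle also has desmosomes, 4 had no read in either library, and the sums were 10.8 and 7.92 CPM. The part of these cell types in the differences below was not tested.

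Regulatory sequence is shown first for the envelope genes, because genes with the same promoter letters did not all have ratios on the same side of 1. RefSeq promoters (GRCm38.p6, not the build of the counts) were found for 48 of the 66 symbols. The 250 bases before each start were searched on both strands for the letters of 5 motifs. AP-1 was searched as TGANTCA, which reads alike on both strands. TCF/LEF was searched as CTTTGAT. GRHL was searched as AACCNGTT and KLF as CCNCNCCC. TATA was searched as TATAAA. AP-1 letters stood in 16 of 50 member promoters (32%) and in 6.75% of all 32851 promoters, and TATA letters in 36% and 12.4%. TCF/LEF letters stood in 6% and 3.21%, KLF letters in 28% and 45.9%, and GRHL letters in 0% and 1.79%. Of the 13 members called higher only 5 had a promoter in the search, none of them a desmosomal cadherin gene. Among these promoters AP-1 letters stood in 1 of 5 and TATA letters in 2 of 5. Among those of members called lower, each stood in 0 of 3. Below are the 150 bases before the start of the 5 measured genes with AP-1 letters in that stretch, and of Tgm3, which has none there. Capitals mark AP-1 and TATA letters, the former farther from the start.
Ivl, chr3:92573736-92573885, minus strand: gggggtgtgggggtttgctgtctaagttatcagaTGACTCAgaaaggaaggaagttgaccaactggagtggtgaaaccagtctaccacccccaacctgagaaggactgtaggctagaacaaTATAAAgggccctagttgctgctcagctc
Lor, chr3:92083143-92083292, minus strand: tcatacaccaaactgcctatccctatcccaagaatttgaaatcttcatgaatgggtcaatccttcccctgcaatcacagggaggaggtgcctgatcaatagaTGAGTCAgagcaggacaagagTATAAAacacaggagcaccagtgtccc
Sprr1a, chr3:92485882-92486031, minus strand: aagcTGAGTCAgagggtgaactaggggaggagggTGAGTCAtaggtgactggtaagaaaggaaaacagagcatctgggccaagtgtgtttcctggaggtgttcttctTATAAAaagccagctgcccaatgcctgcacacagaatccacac
Krtdap, chr7:30787755-30787904, plus strand: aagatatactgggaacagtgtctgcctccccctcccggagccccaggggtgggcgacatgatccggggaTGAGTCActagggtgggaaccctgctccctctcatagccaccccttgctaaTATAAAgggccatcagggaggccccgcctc
Sbsn, chr7:30751321-30751470, plus strand: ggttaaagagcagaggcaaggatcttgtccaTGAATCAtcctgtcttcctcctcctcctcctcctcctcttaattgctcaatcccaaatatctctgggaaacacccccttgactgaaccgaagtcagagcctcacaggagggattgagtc
Tgm3, chr2:130012190-130012339, plus strand: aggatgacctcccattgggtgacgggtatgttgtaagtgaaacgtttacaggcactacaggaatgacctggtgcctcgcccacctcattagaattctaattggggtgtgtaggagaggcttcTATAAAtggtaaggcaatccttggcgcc
The AP-1 letters began 116 bases before the start in Ivl, 48 in Lor, 81 in Krtdap and 119 in Sbsn, and at 146 and 116 in Sprr1a. Among these 6 genes Krtdap and Tgm3 were higher by the size rule and 4 were not called, with Lor below 1. A match describes letters and is not evidence of binding.

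The desmogleins, the cadherins whose isoforms mark how far an epithelium has stratified, had the highest median ratio of the 10 roles, although their summed level was 1.62-fold higher and that of the transglutaminases 3.20-fold. By the size rule 5 of 6 were higher in Met_Bcat, but Dsg1a and Dsg1b of these reached the minimum only through Met_Bcat. The median log2 ratio over the 6 was 2.14. This median was 1.36 with 2 CPM added in place of 0.5, and 1.78 over the 4 desmogleins with a mean of at least 10 CPM. Dsg2, the form of simple epithelia, was the exception. It had 3291 reads (179 CPM) in Bcat_Only and 4569 (217 CPM) in Met_Bcat, a ratio of 1.21 (1.16 to 1.27). Dsg3, the form of basal and lower squamous layers and the pemphigus vulgaris antigen, had 149 reads (8.09 CPM) and 1212 reads (57.5 CPM). Its ratio was 7.11 (5.99 to 8.49).

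The 3 desmoglein 1 genes, forms of the upper squamous layers, were all low in Bcat_Only. Dsg1c had 85 and 432 reads, Dsg1a 6 and 83, and Dsg1b 2 and 50, with ratios of 4.44 (3.51 to 5.67), 12.1 (5.33 to 33.9) and 21.9 (5.74 to 185). These genes resemble each other: of their 51-base windows, the read length here, 70.8%, 65.3% and 51.6% occurred in no other gene's transcript. How reads were split among the 3 is therefore uncertain, and their sum of 93 and 565 reads gave a ratio of 5.31 (4.26 to 6.69). Dsg4, the desmoglein of hair and upper epidermis, had 139 and 475 reads, a ratio of 2.99 (2.47 to 3.64).

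Within the desmoglein family Dsg2 held a smaller share in Met_Bcat, a comparison that needs no scaling of the libraries. Dsg2 made up 89.6% of desmoglein reads in Bcat_Only (88.6% to 90.6%) and 67.0% in Met_Bcat (65.9% to 68.1%). Per kilobase of exon these shares were 80.9% and 50.5%. Dsg3 took 4.06% (3.44% to 4.75%) and 17.8% (16.9% to 18.7%). The level of Dsg2 per exon length was 11.4 times that of Dsg3 in Bcat_Only and 1.95 times in Met_Bcat, so Dsg3 relative to Dsg2 was 5.86-fold higher in Met_Bcat (exact interval 4.91 to 7.03).

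The desmocollins, the partner cadherins, had ratios above 1 as well. Dsc2, the widely expressed form, had 1945 reads (106 CPM) and 3814 reads (181 CPM), a ratio of 1.71 (1.62 to 1.81). Dsc3, the basal form of stratified epithelia, had 61 and 217 reads and passed the size rule at 3.11 (2.33 to 4.20). Dsc1, the form of upper epidermal layers, had 66 and 198 reads and a ratio of 2.62 (1.98 to 3.52), whose near end fell just short. Dsc2 kept most of the family, with 93.9% of its reads in Bcat_Only (92.8% to 94.9%) and 90.2% in Met_Bcat (89.3% to 91.1%). Relative to Dsc2, Dsc3 was 1.81-fold (1.35 to 2.46) and Dsc1 1.53-fold higher (1.15 to 2.06) in Met_Bcat.

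All 9 desmosomal cadherin genes are neighbours on chromosome 18 (mm9, 20119431 to 20763022), with no other gene of the table lying wholly between the first and the last. All 9 had ratios above 1 and 6 were higher by the size rule. Of these 6, Dsg1a and Dsg1b reached the minimum only through Met_Bcat. Of the 7 measured genes within 1 Mb, all on the Dsg2 side, 1 was higher and 2 lower, with a median log2 ratio of 0.06. On the Dsc3 side the only gene within 1 Mb was 5S_rRNA, which had no read. The called genes were Klhl14, with 4 and 103 reads (22.5-fold higher, 8.53 to 84.2), Rnf125, 9.29-fold lower (6.11 to 14.7), and B4galt6, 2.45-fold lower (2.30 to 2.61). Klhl14 reached the minimum only through Met_Bcat. Of the 7, 5 had a ratio above 1, as did 52.3% of all genes measured.

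**Figure D2:**
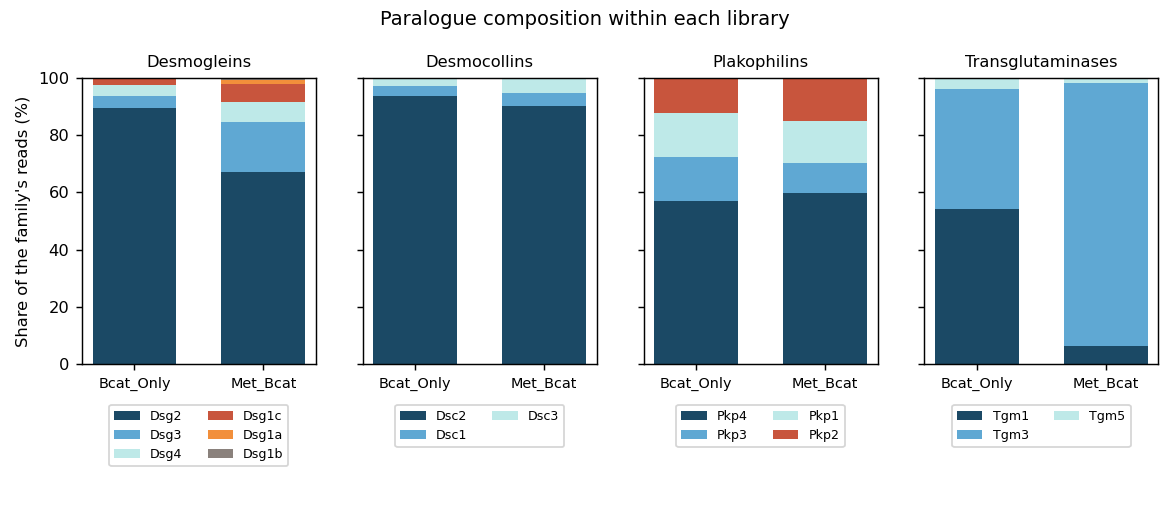
Share of each family's reads (percent) taken by each gene in the Bcat_Only and Met_Bcat libraries, 1 stacked bar per library. The Dsg2 block shrinks from 89.6% to 67.0%, Pkp4 is the largest plakophilin in both libraries, and Tgm3 grows from 41.8% to 92.2% of transglutaminase reads.

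On the cytoplasmic side, desmoplakin was higher by the size rule and plakoglobin was not. Dsp (ENSMUSG00000054889, mm9 chromosome 13, 38243197 to 38290446), which anchors keratin filaments, was the most abundant member by CPM in both libraries. Its level was 507 CPM in Bcat_Only, against 1202 CPM in Met_Bcat, a ratio of 2.37 (2.32 to 2.43). By level per exon length it ranked 1051st of all rows in Bcat_Only and 279th in Met_Bcat. By that measure the member Sprr2a3 stood above it in both libraries, ranked 1016th and 216th. Jup, the plakoglobin gene and a close relative of beta-catenin (ENSMUSG00000001552, chromosome 11, 100230272 to 100259077), had 234 and 318 CPM, a ratio of 1.36 (1.31 to 1.41). Per exon length Dsp was at 1.45 times the level of Jup in Bcat_Only and 2.53 times in Met_Bcat. Relative to Ctnnb1, the beta-catenin gene, Jup was 1.37-fold higher in Met_Bcat (1.31 to 1.43).

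Plakophilins, the armadillo proteins of the plaque, all had ratios above 1 and none passed the size rule. A ratio above 1 was found in 52.3% of all genes measured. Pkp2, found in simple epithelia and heart, came closest, with 639 and 1597 reads and a ratio of 2.18 (1.99 to 2.40). Pkp4, which is also found at adherens junctions, was the most abundant, at 163 and 300 CPM (ratio 1.84, 1.77 to 1.93). Pkp1, the suprabasal form of stratified epithelia, had 810 and 1527 reads (1.65, 1.51 to 1.80). Pkp3 had 810 and 1117 reads (1.21, 1.10 to 1.32). Pkp1 relative to Pkp2 was 0.754 times as high in Met_Bcat as in Bcat_Only (0.664 to 0.857).

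**Figure D3:**
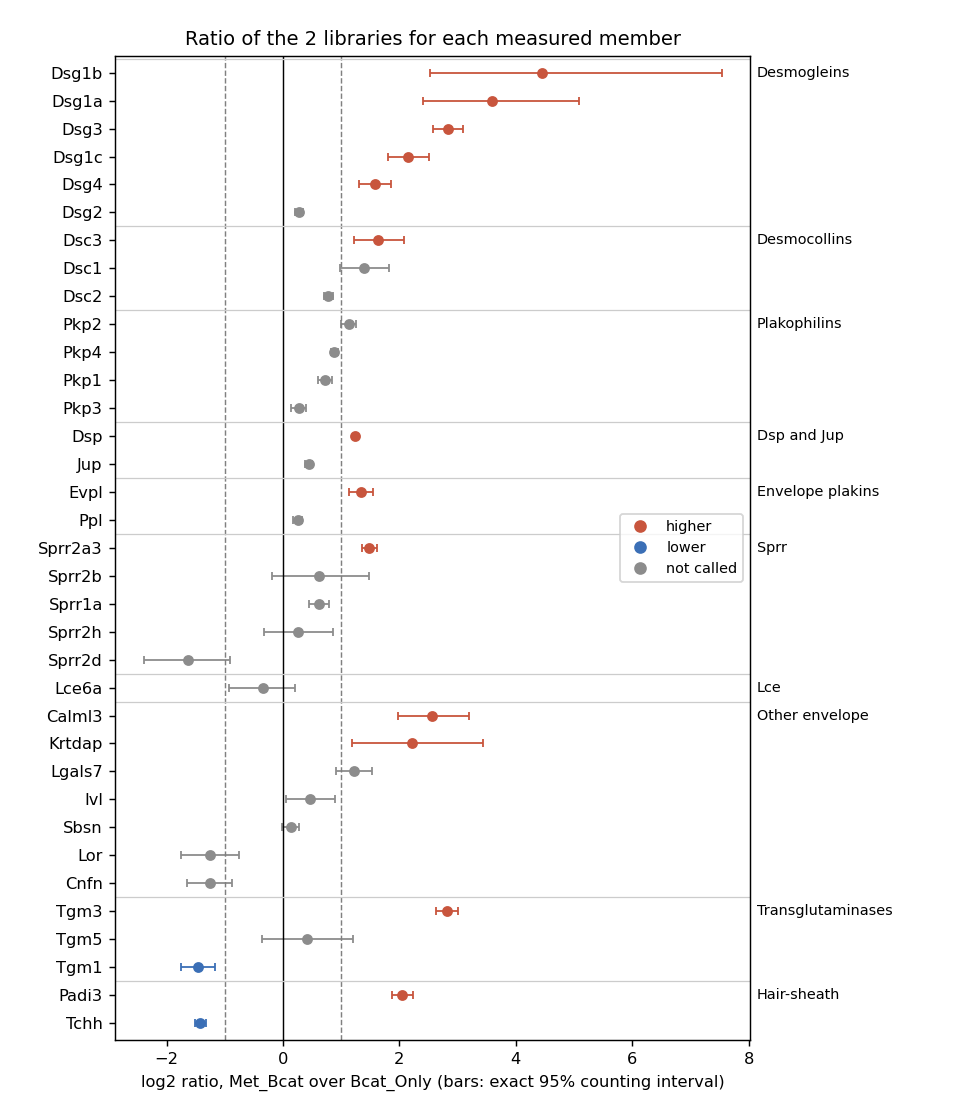
log2 ratio of Met_Bcat to Bcat_Only for the 35 measured members by role, with bars for the exact 95% counting interval and dashed lines at 2-fold. The 13 members in red and the 2 in blue have intervals wholly beyond 2-fold, and Pkp2, Dsc1 and Lgals7 reach just inside the line.

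The plakins that start the envelope differed from each other. Evpl, envoplakin, had 264 and 765 reads (14.3 and 36.3 CPM) and was higher at 2.53 (2.20 to 2.92), a call that scaling to 7 simple-epithelial genes ended. Ppl, periplakin, its partner, had 109 and 130 CPM, a ratio of 1.19 (1.12 to 1.26). Evpl took 11.6% of the reads of the pair in Bcat_Only and 21.9% in Met_Bcat, a 2.13-fold higher ratio to Ppl (1.83 to 2.49).

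Transglutaminases, the enzymes that cross-link the envelope, went opposite ways. Tgm3, an enzyme of the envelope and the hair follicle (ENSMUSG00000027401, chromosome 2, 129838085 to 129876135), had 264 reads (14.3 CPM) in Bcat_Only and 2127 (101 CPM) in Met_Bcat. Its ratio was 7.04 (6.19 to 8.03). Tgm1, the keratinocyte enzyme bound to the membrane (ENSMUSG00000022218, chromosome 14, 56318846 to 56332329), had 342 reads (18.6 CPM) and 142 (6.74 CPM), 2.76-fold lower (2.26 to 3.37). Tgm5 was low in both, with 25 and 38 reads and a ratio of 1.33 (0.781 to 2.30). Tgm3 therefore took 41.8% of the reads of the 3 genes in Bcat_Only (38.0% to 45.8%) and 92.2% in Met_Bcat (91.0% to 93.3%). Its ratio to Tgm1 was 19.4-fold higher in Met_Bcat (15.3 to 24.7).

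Among the other envelope and suprabasal genes 2 of 7 were higher and 0 lower. Calml3, a calmodulin-like protein of epithelial cells, had 27 and 182 reads, a ratio of 5.89 (3.92 to 9.19). Krtdap, a secreted protein of differentiating keratinocytes, had 9 and 48 reads, a ratio of 4.66 (2.26 to 10.8). Lgals7, galectin-7 of stratified epithelia, had 122 and 326 reads and a near end just short of the rule (2.34, 1.89 to 2.90). Its neighbour in role, Sbsn, suprabasin, was at 37.6 and 41.2 CPM, with an interval that held 1 (0.992 to 1.21).

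Of the structural proteins Ivl, Lor and Cnfn none was called by the size rule, and Flg and Flg2 were below the minimum. Ivl, involucrin, an early envelope protein, had 80 and 127 reads, a ratio of 1.39 (1.04 to 1.86). Lor, loricrin, the main protein of the mature epidermal envelope, had 110 and 53 reads, 2.37-fold lower (1.70 to 3.36), and Cnfn, cornifelin, 180 and 86 reads, 2.39-fold lower (1.84 to 3.13). Neither passed the size rule. The ratio of Lor to Ivl in Met_Bcat was 0.305 times that in Bcat_Only (0.193 to 0.477). Flg2 had no read in either library, which allows up to 0.163 and 0.142 CPM, and the 5 Flg rows, filaggrin of the granular layer, had 0 and 2 reads in all.

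Small proline-rich genes, cross-bridging proteins of the envelope, were carried by 2 of 16 rows. Sprr2a3 had 715 reads (38.8 CPM) and 2290 (109 CPM), a ratio of 2.80 (2.57 to 3.05), and no other Sprr row was higher by the size rule. It cannot be told from its copies with certainty, since 39.5% of its 51-base windows were found in no other gene, and 3.76% and 3.60% of those of Sprr2a1 and Sprr2a2, whose models also overlap it or each other. Sprr1a had 431 and 756 reads, a ratio of 1.53 (1.36 to 1.73). The other 11 Sprr2 rows summed to 161 and 181 reads, a ratio of 0.983 (0.790 to 1.22). Of these Sprr2b had 21 and 37 reads, Sprr2h 43 and 59, and Sprr2d 62 and 23. Sprr2d was 3.08-fold lower, with a near end of 1.88. Below the minimum, Sprr1b had 4 and 29 reads, Sprr2f 3 and 21 and Sprr2a1 19 and 14.

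Late cornified envelope genes were near the floor. Only Lce6a reached the minimum, with 58 and 52 reads (0.784, 0.528 to 1.16). The 13 Lce1 rows, genes of normal skin, summed to 27 and 29 reads, a ratio of 0.939 (0.536 to 1.65). The 4 Lce3 rows, which in skin are linked to wounding and psoriasis, summed to 10 and 80 reads, a ratio of 6.99 (3.61 to 15.1). Of their 51-base windows 81.4% (Lce3a), 88.3% (Lce3b), 64.6% (Lce3c) and 52.05% (Lce3f) occurred in no other gene's transcript. How reads were split among the 4 is therefore uncertain. Lce3a had 2 and 25 reads, Lce3b 1 and 26, and Lce3f 7 and 13. Lce3c had 0 and 16, at least 4.66-fold higher when 3 reads are taken as the floor, and 3.37-fold at the near end of the counting interval. Lce1a1, by contrast, had 12 and 2 reads.

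Trichohyalin and its modifying enzyme went opposite ways. Tchh, a filament-binding protein of the hair inner root sheath (ENSMUSG00000052415, chromosome 3, 93246252 to 93252999), had 3339 reads (181 CPM) in Bcat_Only, more than Ppl. In Met_Bcat it had 1427 reads (67.7 CPM), 2.68-fold lower (2.52 to 2.85). Padi3, the peptidylarginine deiminase that acts on trichohyalin (ENSMUSG00000025328, chromosome 4, 140341280 to 140366563), had 282 reads (15.3 CPM) and 1337 (63.4 CPM), a ratio of 4.14 (3.64 to 4.73). Tchhl1 had 20 and 8 reads. The level of Padi3 per exon length was 0.143 times that of Tchh in Bcat_Only and 1.58 times in Met_Bcat. In the list of sebaceous and hair follicle markers Hoxc13, a regulator of hair keratins, had 0 and 30 reads, at least 8.74-fold higher against the same floor and 6.68-fold at the near end of its interval, while 3 of 10 markers had no read in either library.

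The 35 members below the minimum summed to 97 reads in Bcat_Only and 216 in Met_Bcat. Of these, 21 had more reads in Met_Bcat and 5 fewer, counted without scaling although Met_Bcat was the larger library. The same count over all genes below the minimum was not made, so these counts are not read as a trait of the members. Only 9 reached 10 reads in a library, and those are named above, while 26 did not.

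Of the 70 members 44 lie on chromosome 3, in the epidermal differentiation cluster (91884197 to 93275902). Only 9 of these reached the minimum, and they held 1 higher and 1 lower gene. The 26 members elsewhere all reached it, with 12 higher and 1 lower. Among the 14 other genes of the table inside the cluster, 6 were measured and went both ways as well. Rptn, repetin, and Crnn, cornulin, relatives of trichohyalin, were 4.56-fold (3.96 to 5.26) and 18.4-fold higher (7.62 to 57.7), whereas Crct1 was 2.98-fold lower (2.26 to 3.98). Crnn had 5 and 105 reads and reached the minimum only through Met_Bcat. Rptn lies next to Tchh, and the adjacent pair went opposite ways. Prr9, next to Lor, was the most abundant gene of the cluster, at 261 and 210 CPM.

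**Figure D4:**
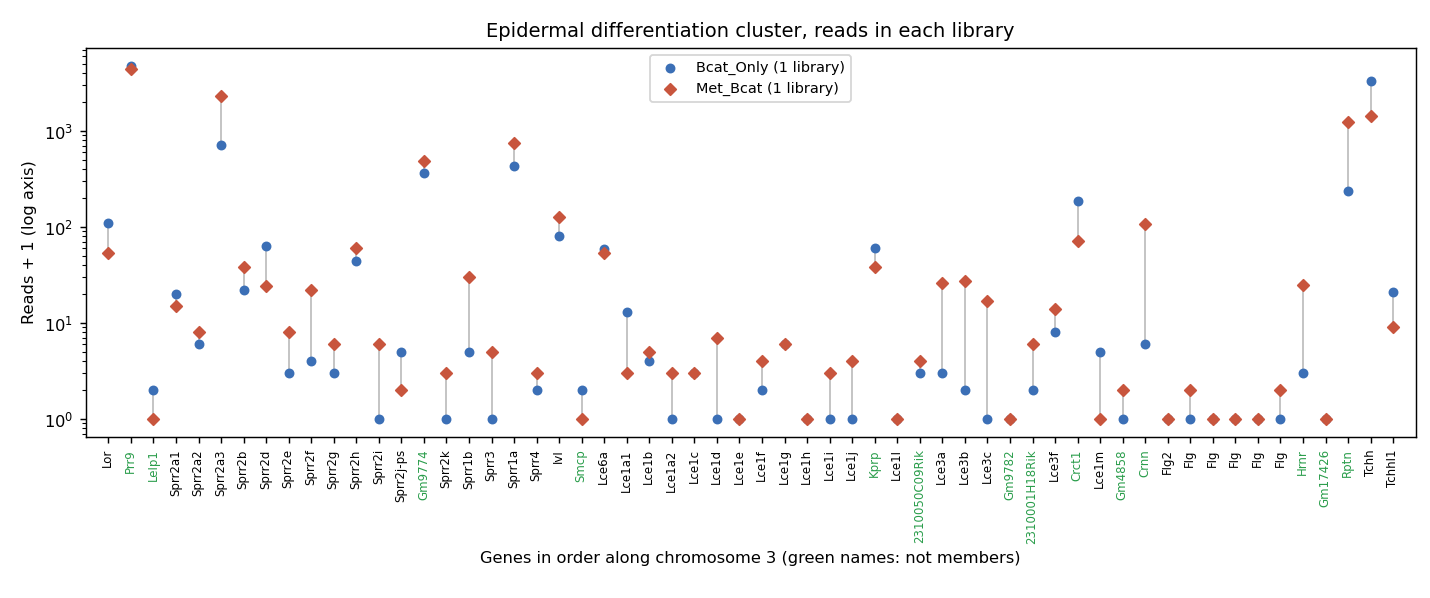
Reads plus 1 (log axis) in the Bcat_Only and Met_Bcat libraries for the 58 genes in order along the chromosome 3 cluster, with names of the 14 genes that are not members in green. Most Lce and Flg rows lie near the bottom, Lce3a to Lce3c are higher in Met_Bcat, and Tchh is higher in Bcat_Only while its neighbour Rptn is not.

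Other epithelial gene lists give the setting. Squamous keratins, which fill the cells that desmosomes join, had 8 of 11 measured genes higher and 0 lower, with a median log2 ratio of 1.82. Krt16, Krt78 and Krt13 were 21.2-fold (12.2 to 40.2), 16.0-fold (8.24 to 35.7) and 8.10-fold higher (4.75 to 14.9). Krt79 had 27 and 278 reads and an interval from 6.05 to 13.9. Krt16, Krt78, Krt13 and the Krt33a given next were under 1 CPM in Bcat_Only and were counted only through Met_Bcat. Of the hair and inner root sheath keratins 2 were measured, and Krt33a was higher at 25.4-fold (9.64 to 94.6). In a list of desmosome partners and keratins, which also holds genes with no settled desmosome role, 2 of 11 were higher. These were Perp, a desmosome membrane protein, at 2.23-fold (2.10 to 2.37), and Krt5, the basal keratin, at 4.85-fold (4.67 to 5.05).

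The neighbouring junctions differed less between the libraries. Adherens and tight junction genes had 0 of 16 higher and 1 lower, Cldn7 at 2.20-fold (2.02 to 2.39), with a median of 0.18. Hemidesmosome genes, which fix basal cells to the basement membrane, had 0 of 9 called and a median of 0.25, against 1.25 over the 15 desmosome genes. Among them Itga6, an integrin subunit, had a ratio of 1.92 (1.87 to 1.98). Dsp relative to Cdh1, the cadherin of adherens junctions, was 2.84-fold higher in Met_Bcat (2.75 to 2.93). Dsg2 relative to Cdh1 was 1.45-fold higher (1.38 to 1.53). With 1 library per genotype the difference between these lists could not be tested.

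Barrier genes of the epidermis were mixed. Proteases and inhibitors had 2 of 9 measured genes higher and 2 lower. Klk14, a desquamation protease, had 3 and 71 reads (20.7-fold higher, 6.80 to 103) and reached the minimum only through Met_Bcat, and Spink5, an inhibitor of such proteases, was 6.30-fold higher (4.83 to 8.34). Serpinb2, which reached it only through Bcat_Only, was 11.3-fold (5.70 to 25.5) and Asprv1, a protease that processes filaggrin, 3.42-fold lower (3.01 to 3.89). Of 13 barrier lipid genes 10 were measured, with 2 higher and 1 lower. Abca12, a lipid transporter, was 8.01-fold (3.46 to 22.8) and Cyp4f39 3.52-fold higher (2.50 to 5.06), and Ugcg was 2.33-fold lower (2.21 to 2.45). Abca12 also reached the minimum only through Met_Bcat.

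Regulators of squamous differentiation had 6 of 23 higher and 4 lower. Hes1, a Notch target, was 4.01-fold (3.67 to 4.37) and Gata3 3.13-fold higher (3.04 to 3.24). Maf, a late-differentiation factor that macrophages also express, was 4.67-fold lower (4.26 to 5.14), beside 8 of 9 macrophage markers that were lower. The part of macrophages in this was not tested.

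**Figure D5:**
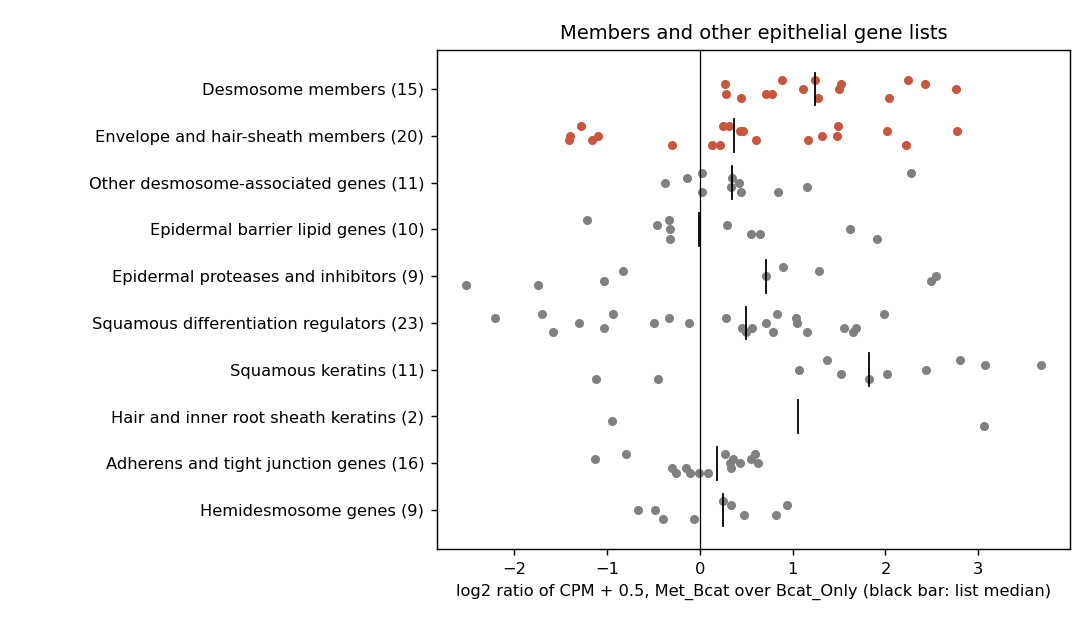
log2 ratio of CPM plus 0.5 for each measured gene of the member groups (red) and of 8 other lists (grey), with a black bar at each median. The 15 desmosome genes all lie to the right of 0, with a median of 1.25, while the adherens and tight junction genes have a median of 0.18.

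The 10 basal cell markers did not share a direction: 4 were higher, 1 was lower and 5 were not called, with a median log2 ratio of 0.88. Krt5 was 4.85-fold higher, Krt14 5.46-fold (5.11 to 5.84) and the p63 gene Trp63 3.24-fold (2.95 to 3.56), while Krt15 was 10.9-fold lower (9.48 to 12.5). Members were also set directly against single keratin and p63 genes, in ratios that need no scaling. Dsg3 was 1.46-fold higher relative to Krt5 (1.23 to 1.76), 1.30-fold relative to Krt14 (1.08 to 1.57) and 2.19-fold relative to Trp63 (1.80 to 2.68). Dsp relative to Krt5 was 0.489 times as high in Met_Bcat (0.466 to 0.512), and relative to the luminal keratin Krt8 it was 1.75-fold higher (1.67 to 1.82). Relative to Krt5, Krt14 and Trp63 summed, a set chosen after the data were seen, 5 of the 35 measured members had a ratio above 1 and 30 below. On this scale 93.1% of all genes were lower by the size rule, against 20 of 36 members. A ratio below 1 was therefore not particular to the members. Of the 13 members called higher with TMM scaling, 5 were above 1, 4 of them with the whole interval, and 8 were below. Dsg1a and Dsg1b, which are among the 4, reached the minimum only through Met_Bcat.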

How the data were processed

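For 2 libraries the authors deposited raw counts of reads by gene, with mm9 coordinates and total exon lengths, per the file headers. Per the submitters' processing notes, TopHat2 version 2, HTSeq, edgeR and the build mm9 were used. The sources used here do not give counting and strand settings, so overlapping, antisense and near-identical genes are uncertain. Per the labels' protocols, 200 ng RNA per sample entered a stranded mRNA kit with 10 PCR cycles, and sequencing gave single-end 51-base reads.

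Columns were matched to samples by the sample number in their headings. Library sizes were scaled with TMM factors, 0.955 for Bcat_Only and 1.05 for Met_Bcat (edgeR 4.0.16, R 4.3.3), without any model. Intervals for ratios, shares and ratios of ratios are exact (scipy 1.17.1). Reads copied by PCR carry no molecular identifiers and are not independent, so intervals and floors (3 reads) cover counting error only. With 1 library per genotype no p-value was computed. Levels of different genes were compared per exon length, as reads per base summed to 1000000 per library (TPM). The share of unique 51-base windows used GENCODE M21 transcripts, an annotation of another build, found for 64 of 70 members. The interval procedure was tested on simulated data. Members and 8 lists were chosen with earlier results of these data known. Named were members with a mean of at least 1 CPM or 10 reads in a library, and up to 4 genes per list by the near end of the interval; 1 gene that this rule names is not reported here. Alternatives were 5 other scalings (DESeq2 1.42.0 for 1 of them), 2 other filters, 2 other size rules, 2 other pseudocounts, summed Sprr2 and Lce genes, and shares per kilobase.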

Additional observations from a re-analysis of the deposited data

How the results depend on the processing

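With 1 library per genotype no replicate could be left out. No paired analysis was possible because each genotype has 1 library and no test was run. Depth limits the Lce, Flg and most Sprr rows. Of the 35 measured members, 35 kept their call and sign with DESeq2 size factors, 33 with upper-quartile scaling and 32 with total counts, the others becoming higher. Scaling to 7 simple-epithelial genes shifted every log2 ratio by −0.16: Evpl lost its call, Cnfn and Sprr2d became lower (4 lower members), Sbsn turned to −0.03 and the members' median was 0.61. With total counts that median was 0.91, without a filter 0.43, and at a mean of at least 10 CPM 0.88, with 8 higher members and 11 higher genes in the 8 lists (21 otherwise). A point ratio of 2-fold gave 5 lower members of 35, where 18% of all genes were lower. A 4-fold rule gave 4 higher and 0 lower members, against 1.75% and 7.57% of all genes. The median of the late cornified envelope genes turned from −0.30 (1 gene) to 0.25 without a filter. Scaling to 3 basal genes, chosen after the data were seen, shifted every log2 ratio by −2.26 and gave 0 higher and 20 lower of 36 members (0.466% and 93.1% of all genes), a median of −1.43, and 2 higher and 66 lower genes in the lists. Per kilobase, shares in Bcat_Only and Met_Bcat were 80.9% and 50.5% for Dsg2, 7.08% and 25.9% for Dsg3, 92.7% and 88.6% for Dsc2, 34.4% and 89.7% for Tgm3, and 61.3% and 8.23% for Tgm1. The cause of these changes was not tested.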
